A study of Mus musculus with 27 samples.

Results

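The 10 glycolytic enzymes Hk2, Hk3, Gpi1, Pfkl, Aldoa, Gapdh, Pgk1, Eno1, Pkm and Ldha were followed in RNA of macrophages and neutrophils sorted from mouse mammary tumours. They were chosen by gene symbol from a list of the pathway's steps, and 10 of the 10 had a row in a table of 9996 genes. The tumours arise in K14cre;Cdh1F/F;Trp53F/F mice, in which Cre driven by the keratin 14 promoter deletes E-cadherin and p53 in epithelium, so the deletions are driven in epithelial cells and not in the sorted myeloid cells. Mice received cisplatin with anti-CSF-1R (the combination), cisplatin with a control antibody, anti-CSF-1R alone, or the control antibody alone. In that order, macrophages gave 2, 4, 2 and 4 libraries and neutrophils gave 4, 3, 4 and 4, which makes 27 libraries in 8 groups. Cisplatin crosslinks DNA, and signals through CSF-1R keep most tissue macrophages alive. Tissue was taken 1 day after injection number 2 from cisplatin-treated mice, and at a tumour size of 100 mm2 from the rest, so effects of cisplatin and of this endpoint cannot be told apart. On GRCm38, Gpi1, Aldoa and Ldha lie on chromosome 7, Hk2 and Gapdh on 6, Hk3 on 13, Pfkl on 10, Pgk1 on X, Eno1 on 4 and Pkm on 9. Mouse age, the sort markers and whether animals were pooled are not given in the sources used here.

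Glycolysis converts glucose to pyruvate in the cytosol and yields ATP without oxygen. Hexokinases (Hk2, Hk3) trap glucose as glucose 6-phosphate, Gpi1 turns it into fructose 6-phosphate, and the liver-type phosphofructokinase Pfkl commits it to the pathway. Aldolase (Aldoa) splits the sugar, and Gapdh, Pgk1, Eno1 and the pyruvate kinase gene Pkm carry the products to pyruvate, which lactate dehydrogenase A (Ldha) reduces to lactate. Neutrophils are known to rely on glycolysis and hold few mitochondria, and many of these genes are textbook targets of the hypoxia-inducible factor HIF-1 and of MYC.

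Promoters of 4 of the enzymes are shown, because Pkm differed between the cell types in all 4 treatments, Hk3 was the enzyme that passed the test for a treatment, and Ldha and Pgk1 are textbook HIF-1 targets. Each runs from 250 bases before to 50 bases after a RefSeq start on GRCm38.p6, on the gene's own strand, 5′ to 3′. Capitals mark ACGTG, the core of the element bound by HIF-1, on either strand, so that CACGT is the same core read from the other strand. CACGTG, the E-box bound by MYC and MAX, holds the core on both strands and counts as 2 overlapping matches.
Hk3, chr13:55021336-55021635, minus strand: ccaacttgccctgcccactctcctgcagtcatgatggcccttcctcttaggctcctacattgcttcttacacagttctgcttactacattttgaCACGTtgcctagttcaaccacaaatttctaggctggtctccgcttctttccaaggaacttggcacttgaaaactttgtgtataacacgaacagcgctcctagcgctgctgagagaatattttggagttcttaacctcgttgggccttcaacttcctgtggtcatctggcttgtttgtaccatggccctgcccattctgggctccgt
Pkm, its second start, chr9:59656977-59657276, plus strand: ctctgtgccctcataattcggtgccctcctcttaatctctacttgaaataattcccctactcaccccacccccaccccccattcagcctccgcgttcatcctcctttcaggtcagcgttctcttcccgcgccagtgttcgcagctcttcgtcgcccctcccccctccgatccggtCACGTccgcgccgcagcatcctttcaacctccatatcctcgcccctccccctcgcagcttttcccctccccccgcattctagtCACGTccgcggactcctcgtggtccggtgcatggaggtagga
Pgk1, chrX:106186850-106187149, plus strand: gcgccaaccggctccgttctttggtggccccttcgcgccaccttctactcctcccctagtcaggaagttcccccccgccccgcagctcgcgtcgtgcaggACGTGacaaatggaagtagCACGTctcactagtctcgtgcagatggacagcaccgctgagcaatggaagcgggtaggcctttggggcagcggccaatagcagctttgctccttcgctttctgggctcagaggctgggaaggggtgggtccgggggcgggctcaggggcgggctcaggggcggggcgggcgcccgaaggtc
Ldha, its first start, chr7:46845554-46845853, plus strand: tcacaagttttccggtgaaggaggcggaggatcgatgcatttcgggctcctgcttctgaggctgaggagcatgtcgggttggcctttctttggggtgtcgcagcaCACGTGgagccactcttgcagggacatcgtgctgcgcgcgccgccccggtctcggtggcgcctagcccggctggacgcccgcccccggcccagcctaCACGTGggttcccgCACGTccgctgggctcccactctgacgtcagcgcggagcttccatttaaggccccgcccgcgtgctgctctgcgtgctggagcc

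The 10 enzymes matched 16 promoter entries, and 8 of the 16 entries held ACGTG on either strand. Over all 32851 RefSeq promoters of this length, 19.6% held ACGTG on either strand and 7.15% held CACGTG. Counted by gene, 7 of the 10 enzymes held ACGTG in 1 entry or more, as did 21.8% of 27025 genes. Ldha had 5 matches at its first start, 4 of them from 2 E-boxes at 145 and 48 bases before the start and the other at 34 bases before it. Pgk1 had 2 matches, 150 and 131 bases before its start. Pkm had 2 at its second start, 75 bases before the start and 8 bases after it, and none at its first start. Hk3 had 1, at 156 bases before its start. Hk2 had 2, Gapdh 1 and Aldoa 1, and none was in these windows of Gpi1, Pfkl and Eno1. A match describes the letters of the window and says nothing of binding.

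Values are the authors' normalised read counts (reads divided by a size factor per library), whose lost decimal places were restored from the worth of 1 read in each library. Of the 270 enzyme values 5 could not be placed and were left out: Hk2 in cisplatin neutrophil replicate 2, Gpi1 in control neutrophil replicate 3, Pfkl in control neutrophil replicate 2, Eno1 in cisplatin neutrophil replicate 3 and Eno1 in control macrophage replicate 3. Summed over the genes of the table, the restored reads of a library came to 1301149 to 7510075 in macrophages and 1000722 to 3284797 in neutrophils. Summed over 16 of 16 macrophage markers, the 12 macrophage libraries stood at 19863 to 38304 and the 15 neutrophil libraries at 2777 to 5923. Over 14 of 17 neutrophil markers the sums were 609 to 2453 in macrophage libraries and 31408 to 125687 in neutrophil libraries, so each sort carried its own markers. Eosinophil markers summed to 147 to 430 in control neutrophils and 6.75 to 20.9 in control macrophages. Fibroblast and endothelial markers summed to 234 to 301 and 79.8 to 133, and proliferation genes to 998 to 1521 and 1163 to 2187, in the same order. The part of these in the differences between cell types was not tested. Cisplatin replicate 2 and combination replicate 2 of the neutrophils were known from earlier work on these data to stand apart. Their neutrophil markers summed to 115452 and 125687, against 31408 to 71110 in the other neutrophil libraries. The part of this in the enzyme values was not tested. Differences are on the log2(value + 1) scale with limma's moderated test. An adjusted p is Benjamini-Hochberg over all genes tested, and a gene is said to pass at an adjusted p under 0.05. Genes counted as lower or higher are those that passed. In sorted bulk RNA, fewer cells expressing a gene and less RNA per cell cannot be told apart. Nothing says that libraries came from separate mice, so p-values measure the spread between these samples.

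Set per kilobase of merged exon, the enzymes fell into a high and a low set of 5 in each of the 8 groups. The high set was Gapdh, Ldha, Pkm, Aldoa and Pgk1, and the low set Hk2, Hk3, Gpi1, Pfkl and Eno1, the last by its own row alone. In no group did the range of the lowest enzyme of the high set overlap that of the highest enzyme of the low set. In control neutrophils the levels per kilobase were 560.4 ± 236 (SD, n = 4) for Gapdh, 299.8 ± 117 (SD, n = 4) for Ldha, 294 ± 47.4 (SD, n = 4) for Pkm, 256 ± 66.7 (SD, n = 4) for Aldoa and 228 ± 39.3 (SD, n = 4) for Pgk1. Below the gap stood Hk2 at 51 ± 15.4 (SD, n = 4) per kilobase, Gpi1 at 28.7 ± 1.51 (SD, n = 3), Hk3 at 28 ± 7.71 (SD, n = 4), Eno1 at 12.8 ± 5.75 (SD, n = 4) and Pfkl at 10.6 ± 3.58 (SD, n = 3). Control macrophages put Gapdh first as well, at 285 ± 82.1 (SD, n = 4) per kilobase, and Pkm last of the high set, at 111 ± 22.9 (SD, n = 4). Of the 9 neighbouring pairs in the order, 1 of which spans the gap, 7 overlapped in combination macrophages, 7 with cisplatin, 3 with anti-CSF-1R and 7 in control macrophages. In neutrophils 8 overlapped in the combination, 8 with cisplatin, 6 with anti-CSF-1R and 7 in controls.

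Near-identical copies limit what some of these rows measure. Cut into stretches of 50 bases, 82.5% of Gapdh's transcript recurs in other genes, against 72.2% of Eno1, 68.0% of Pgk1, 34.4% of Pkm, 19.3% of Gpi1, 16.6% of Ldha, 13.5% of Aldoa, 0.0543% of Pfkl and none of Hk2 and Hk3. The processed pseudogene Gm12070 holds 65.9% of Gapdh's stretches and was listed at 928 to 5641, with a median of 1957, above Gapdh's own 802 to 4659 with a median of 1530.2. The retrogene Eno1b holds 70.5% of those of Eno1 and was listed at 438 to 1723, with a median of 694, against 14.7 to 134 with a median of 63.1 for Eno1. Reads of Gapdh and Eno1 can therefore be split between these rows, and their levels are uncertain. The low level of Eno1 per kilobase, and with it the place of Eno1 in the low set, is that of its own row. In control neutrophils the Eno1 row stood at 29.6, 105, 74.0 and 67.6. With the Eno1b row added the values were 852, 887, 1367 and 903. The split into a high and a low set was not tested with copies added.

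**Figure D1:**
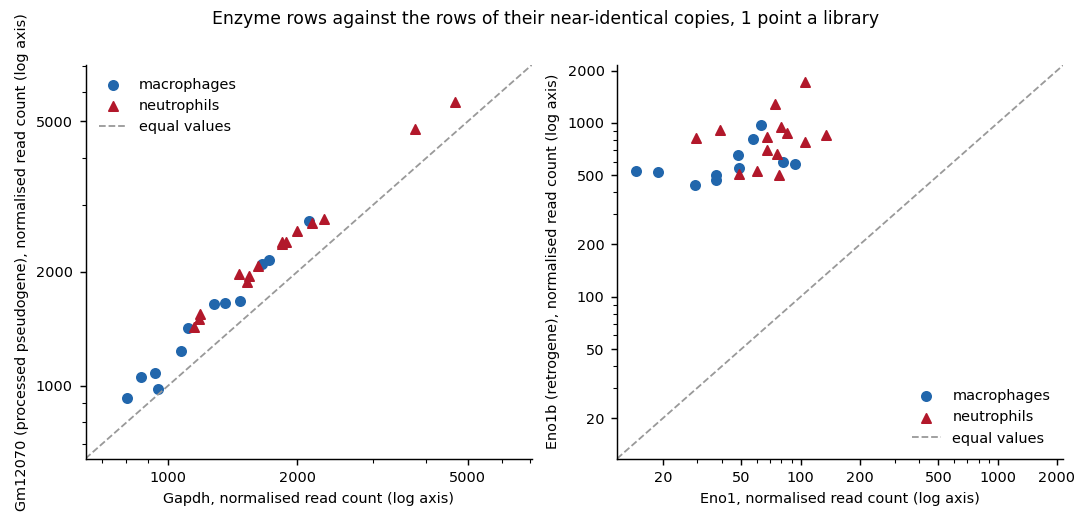
Normalised read count of Gapdh against its processed pseudogene Gm12070 (left) and of Eno1 against the retrogene Eno1b (right), on log axes, 1 point a library; macrophages are circles and neutrophils triangles, and the dashed line marks equal values. Gm12070 lies above the line in 27 of 27 libraries and Eno1b in 25 of the 25 libraries with a placed Eno1 value.

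The first comparison set macrophages against neutrophils of the same treatment. Hk3, Aldoa, Gapdh, Pfkl and Eno1 had differences below 0 in each treatment without passing in all of them. Pkm, the pyruvate kinase gene, was the only enzyme to pass as lower in macrophages in all 4 treatments. Its 12 macrophage libraries lay at 452 to 797, with a median of 566, and its 15 neutrophil libraries at 856 to 2849, with a median of 1254. It was the only enzyme of the 10 whose 2 cell types did not overlap over all libraries. In control tumours, 5 of 10 enzymes passed, each lower in macrophages, where 51.8% of all genes passed and 24.9% were lower. The 10 had a median difference of -0.89, beside 0.13 over all genes tested.

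In control tumours Pkm stood at 471, 452, 693 and 605 in macrophages, against 1254, 1483, 1797 and 1346 in neutrophils (log2 difference -1.41 ± 0.26 SE, adjusted p = 6.99e-05). Hk3, a hexokinase of myeloid cells, stood at 40.3, 22.7, 15.8 and 28.5 in macrophages, against 138, 106, 99.9 and 68.5 in neutrophils (log2 difference -1.94 ± 0.43 SE, adjusted p = 0.000596). For neither did the groups overlap, and both passed in each of the 18 alternative fits, with adjusted p up to 0.00184 for Pkm and 0.00439 for Hk3. Hk2, the inducible hexokinase, stood at 114, 93.3, 203 and 199 in macrophages, against 225, 226, 370.0 and 397 in neutrophils (log2 difference -1.02 ± 0.37 SE, adjusted p = 0.0241). Every Hk2 value of the macrophages was below every one of the neutrophils, and 6 of the 18 alternatives ended the call, with adjusted p up to 0.267, among them leaving out control neutrophil replicate 3 (0.0674) or 4 (0.0745) and control macrophage replicate 1 (0.0662) or 2 (0.0926).

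Aldolase and Gapdh made up the other calls in control tumours. Aldoa stood at 470.3, 410.5, 655 and 548 in macrophages, against 799.8, 841, 1319 and 835 in neutrophils (log2 difference -0.85 ± 0.29 SE, adjusted p = 0.0158). Gapdh stood at 863, 1116, 1659 and 1074 in macrophages, against 1620.3, 1883, 3758 and 2003 in neutrophils (log2 difference -0.94 ± 0.30 SE, adjusted p = 0.0118). The Aldoa groups did not overlap, while the highest macrophage library of Gapdh lay above the lowest neutrophil library. Without control neutrophil replicate 3, the highest library of both genes, neither passed, with adjusted p = 0.0688 for Aldoa, at a log2 difference of -0.68, and adjusted p = 0.0708 for Gapdh, at -0.68. Aldoa also missed the threshold without control macrophage replicate 2, at adjusted p = 0.0535. With the rows of 3 copies (Gm12070, Gm5523 and Gm5069) added to Gapdh, its difference was -0.70 (adjusted p = 0.0669).

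The other 5 enzymes did not pass in control tumours. Ldha averaged 654 ± 169.6 (SD, n = 4) in macrophages and 992 ± 389 (SD, n = 4) in neutrophils (log2 difference -0.57 ± 0.29 SE, adjusted p = 0.097), and Pgk1, which makes the first ATP of the pathway, 357 ± 59.1 (SD, n = 4) in macrophages and 511 ± 88.1 (SD, n = 4) in neutrophils (log2 difference -0.52 ± 0.27 SE, adjusted p = 0.104). Pfkl averaged 54.3 ± 9.09 (SD, n = 4) in macrophages and 71 ± 23.9 (SD, n = 3) in neutrophils (log2 difference -0.35 ± 0.43 SE, adjusted p = 0.507). Its unplaced neutrophil value could be 103, the more probable, or 10.3. By the placed values Gpi1 was the enzyme closest to equal, at 194 ± 33.2 (SD, n = 4) in macrophages and 185 ± 9.77 (SD, n = 3) in neutrophils (log2 difference 0.05 ± 0.31 SE, adjusted p = 0.897). The unplaced neutrophil value of Gpi1 could be 333, the more probable, or 33.3, where the placed ones were 176 to 195. The sign of the Gpi1 difference is therefore uncertain. Eno1 differed by -0.92 ± 0.43 SE, adjusted p = 0.0714, and by -0.81 (adjusted p = 0.0103) with the Eno1b row added to it. Eno1b by itself differed by -0.67 (adjusted p = 0.0327).

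**Figure D2:**
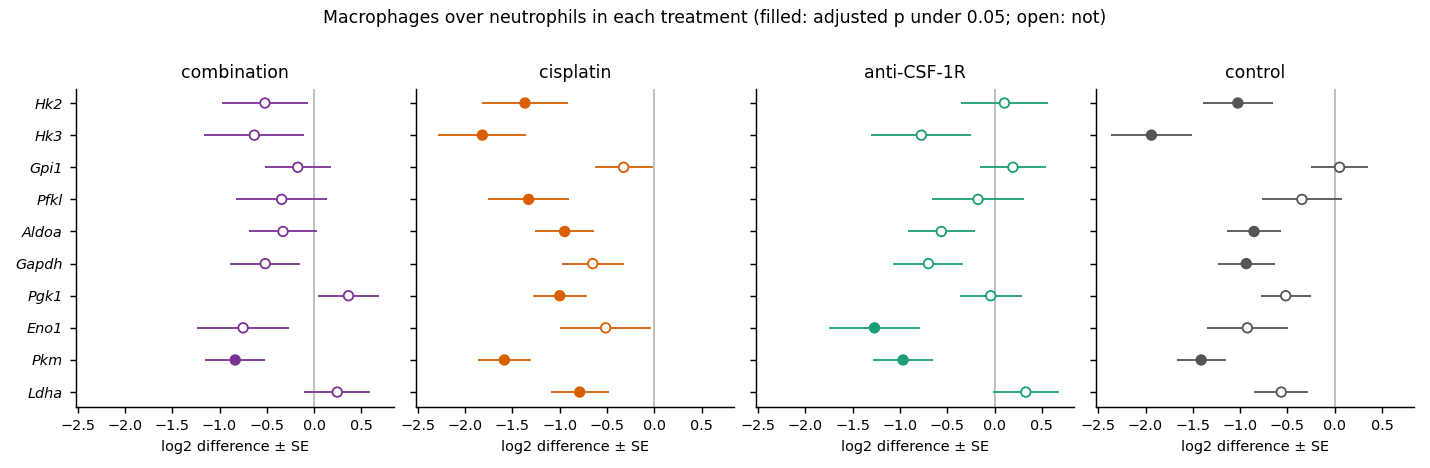
Log2 difference, macrophages over neutrophils, with its standard error for the 10 enzymes in each treatment; filled points passed an adjusted p of 0.05. Pkm is filled in the 4 panels, 7 enzymes are filled with cisplatin and 1 in the combination.

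With cisplatin, 10 of 10 enzymes had a difference below 0 and 7 passed, where 57.2% of all genes passed and 27.6% passed as lower. Pkm differed by -1.58 ± 0.28 SE, adjusted p = 3.54e-05, Hk3 by -1.82 ± 0.47 SE, adjusted p = 0.00181, Hk2 by -1.37 ± 0.46 SE, adjusted p = 0.0131 and Pfkl by -1.33 ± 0.43 SE, adjusted p = 0.00993. Pgk1 differed by -1.0 ± 0.29 SE, adjusted p = 0.00454, Aldoa by -0.95 ± 0.31 SE, adjusted p = 0.0118 and Ldha by -0.79 ± 0.31 SE, adjusted p = 0.0308. Of these calls, 4 rested on cisplatin neutrophil replicate 2, which held the highest value of its group for 9 of the 9 enzymes placed in it. Without it and combination neutrophil replicate 2, 3 enzymes passed with cisplatin: the calls of Pfkl (-0.59, adjusted p = 0.177), Pgk1 (-0.62, adjusted p = 0.0702), Aldoa (-0.50, adjusted p = 0.168) and Ldha (-0.33, adjusted p = 0.370) were lost. Ldha was also lost without cisplatin macrophage replicate 2 (adjusted p = 0.0596) or 4 (adjusted p = 0.0749). Hk2 was lost without cisplatin neutrophil replicate 1 (-0.71, adjusted p = 0.294) or cisplatin macrophage replicate 4 (adjusted p = 0.0505). It was measured against 2 placed neutrophil values, 408 and 164, and did not pass when the unplaced value, which could be 64.3 or 643, was set to 64.3, the more probable (log2 difference -0.70, adjusted p = 0.197).

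With anti-CSF-1R, 7 of 10 enzymes had a difference below 0 and 2 passed as lower in macrophages (43.3% of all genes passed, 21.6% as lower). Pkm stood at 568 and 536 in macrophages, against 926, 1456, 856 and 1172 in neutrophils (log2 difference -0.97 ± 0.32 SE, adjusted p = 0.0155). Eno1 stood at 37.3 and 14.7 in macrophages, against 77.8, 39.1, 48.6 and 76.4 in neutrophils (log2 difference -1.27 ± 0.48 SE, adjusted p = 0.0366), and at -0.40 (adjusted p = 0.273) with the Eno1b row added. Neither gene's groups overlapped. Pkm was lost without either macrophage library or without neutrophil replicate 2 (adjusted p = 0.0663, 0.0907 and 0.0501). Eno1 was lost without macrophage replicate 2 (-0.62, adjusted p = 0.449), neutrophil replicate 1 (adjusted p = 0.0792) or neutrophil replicate 4 (adjusted p = 0.0816).

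In the combination, 8 of 10 enzymes had a difference below 0 and 1 passed as lower in macrophages (47.1% of all genes passed, 24.1% as lower). Pkm stood at 664 and 797 in macrophages, against 1039, 2119, 1223 and 1051 in neutrophils (log2 difference -0.83 ± 0.32 SE, adjusted p = 0.0326). The ranges did not meet, but the call was lost without either macrophage library (adjusted p = 0.201 and 0.0774) and without combination neutrophil replicate 2 (adjusted p = 0.113). Pgk1 lay the other way, at 435 and 574 in macrophages, against 291, 509, 433 and 353 in neutrophils (log2 difference 0.36 ± 0.33 SE, adjusted p = 0.368), as did Ldha (log2 difference 0.24 ± 0.35 SE, adjusted p = 0.582).

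These differences rest on the authors' size factors. When reads were scaled to each library's total instead, the median of all genes moved by 0.48 in control tumours, 0.45 with anti-CSF-1R, 0.55 with cisplatin and 0.69 in the combination. Relative to all genes the enzymes then stood at medians of -0.96, -0.42, -1.04 and -0.47, where those as reported were -1.02, -0.47, -1.10 and -0.55. Scaling to totals moves all genes of a library alike, so this closeness is built in. After quantile normalisation, which can change it, the medians relative to all genes were -0.43, -0.15, -0.49 and -0.01. On the total-read scale itself Pgk1 (1.13, adjusted p = 0.00157) and Ldha (1.02, adjusted p = 0.00706) passed as higher in combination macrophages and Pkm did not pass (-0.06, adjusted p = 0.844).

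**Figure D3:**
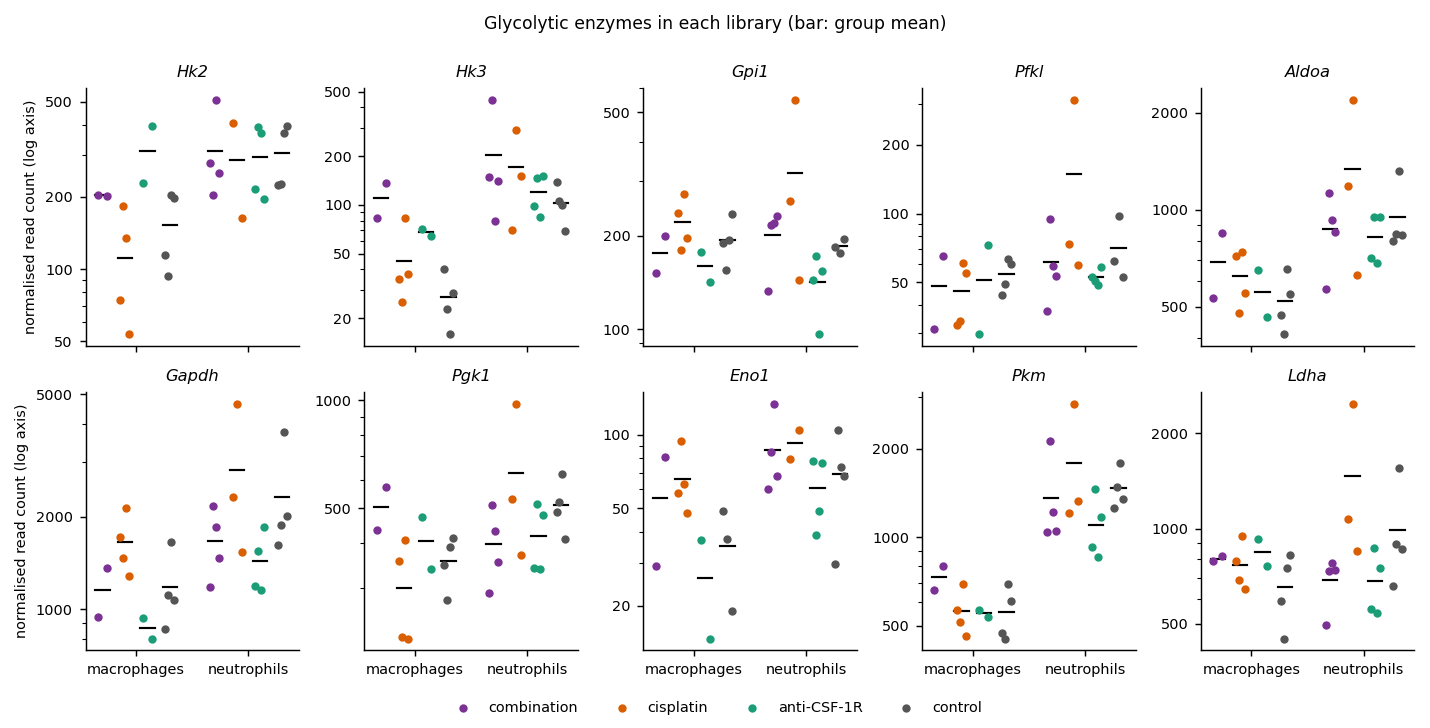
Normalised read count of each enzyme in each library, on log axes that differ between panels; in each cell type the groups run combination, cisplatin, anti-CSF-1R and control from left to right, and bars are group means. Pkm separates the cell types, macrophage Hk3 is highest in the combination, and the highest neutrophil point of 7 enzymes is the same cisplatin library.

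Treatment effects were then compared within each cell type. In macrophages, Hk3 was the only one of the 10 enzymes to pass, and it did so in the combination against control. Hk3 stood at 82.7 and 137 in combination macrophages, 34.7, 25, 82.6 and 37.3 with cisplatin, 71.2 and 64.4 with anti-CSF-1R and 40.3, 22.7, 15.8 and 28.5 in controls. Both combination libraries and both anti-CSF-1R libraries lay above the 4 control libraries, as did 1 of the 4 cisplatin libraries. Hk3 rose in the combination over control (log2 difference 2.03 ± 0.43 SE, adjusted p = 0.0166). That is 1 of 10 enzymes, where 4.26% of all genes passed and 1.96% were higher. Without combination replicate 1 (adjusted p = 0.0664) or replicate 2 (adjusted p = 0.265) it did not pass, nor when decimal places were restored without use of the groups (1.81, adjusted p = 0.0616). Against cisplatin alone the combination had a difference of 1.37 ± 0.43 SE, adjusted p = 0.0793, and anti-CSF-1R against control 1.38 ± 0.43 SE, adjusted p = 0.0784, neither past the threshold. Without cisplatin replicate 3, the highest of its group, the combination passed against cisplatin (1.71, adjusted p = 0.0253). These comparisons share control or combination libraries.

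Markers of other cells moved with the combination macrophages. The neutrophil markers, 14 of 17 measured, summed to 2170 to 2453 in combination macrophages and 1497 to 2122 in control macrophages, against 31408 or more in each neutrophil library. The eosinophil markers, 5 of 8 measured, summed to 186 to 217 in combination macrophages and 6.75 to 20.9 in control macrophages. The fibroblast and endothelial markers, 7 of 9 measured, summed to 401 to 485 in combination macrophages and 79.8 to 133 in control macrophages. The monocyte markers, 6 of 6 measured, summed to 1107 to 2672 in combination macrophages and 501 to 1387 in control macrophages. The proliferation genes, 18 of 20 measured, summed to 638 to 703 in combination macrophages and 1163 to 2187 in control macrophages. Their part in the Hk3 result was not tested. In anti-CSF-1R macrophages, mast cell markers summed to 402 in replicate 1 and 9267 in replicate 2, against 13.9 to 71.6 in controls. Eosinophil markers summed to 67.2 to 106 in anti-CSF-1R macrophages and 6.75 to 20.9 in control macrophages, and proliferation genes to 722 to 773 in anti-CSF-1R macrophages and 1163 to 2187 in control macrophages. The part of these in the anti-CSF-1R values was not tested.

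The other 9 enzymes did not pass in any macrophage comparison. Hk2 stood at 204 and 202 in combination macrophages, 74.6, 183, 135 and 53.5 with cisplatin, 229.5 and 394 with anti-CSF-1R and 114, 93.3, 203 and 199 in controls. Its 2 anti-CSF-1R libraries were above each control library, at a difference of 1.06 ± 0.44 SE, adjusted p = 0.174. Pgk1 stood at 435 and 574 in combination macrophages and 357, 219, 407 and 217 with cisplatin, without overlap (log2 difference 0.79 ± 0.29 SE, adjusted p = 0.129). In the combination over control 7 of the 10 enzymes had differences above 0: beside Hk3 these were Eno1 (0.56), Pgk1 (0.50), Hk2 (0.49), Pkm (0.41), Aldoa (0.39) and Ldha (0.33). The differences of Pfkl (-0.24), Gpi1 (-0.14) and Gapdh (-0.01) lay below 0. The 10 enzymes had medians of 0.40 in the combination over control, 0.11 in the combination over cisplatin, 0.22 with cisplatin over control and 0.06 with anti-CSF-1R over control, beside -0.01, -0.01, -0.00 and 0.03 over all genes tested.

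Cisplatin and anti-CSF-1R alone moved none of the 10 past the threshold in macrophages, where 0.629% and 4.60% of all genes passed, nor did the combination over cisplatin, where 4.80% passed. At an unadjusted p under 0.05, limma's fit across all genes gave 2 of 10 enzymes with cisplatin over control, Eno1 (0.94, adjusted p = 0.447) and Gapdh (0.50, adjusted p = 0.46), where 10.7% of all genes did. It gave Hk3 and Hk2 with anti-CSF-1R over control, where 22.0% did, and Hk3, Pgk1 and Hk2 in the combination over cisplatin, where 21.3% did. The voom fit passed 0 of 10 in these 3 comparisons as well. The counts over all genes moved with single libraries. In the combination over control 389 genes passed, and with 1 library left out 25 (combination replicate 2) to 753 (control replicate 4). In the combination over cisplatin 438 passed, and 30 (combination replicate 2) to 687 (cisplatin replicate 2) with 1 left out. With anti-CSF-1R over control 420 passed, and 47 (anti-CSF-1R replicate 2) to 672 (control replicate 4) with 1 left out, and with cisplatin over control 58 passed, and 30 (cisplatin replicate 3) to 225 (cisplatin replicate 2). Gapdh stood at 1718, 1468, 2130.1 and 1282 with cisplatin, against 863, 1116, 1659 and 1074 in control macrophages, so 3 of the 4 control libraries lay below each cisplatin library.

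**Figure D4:**
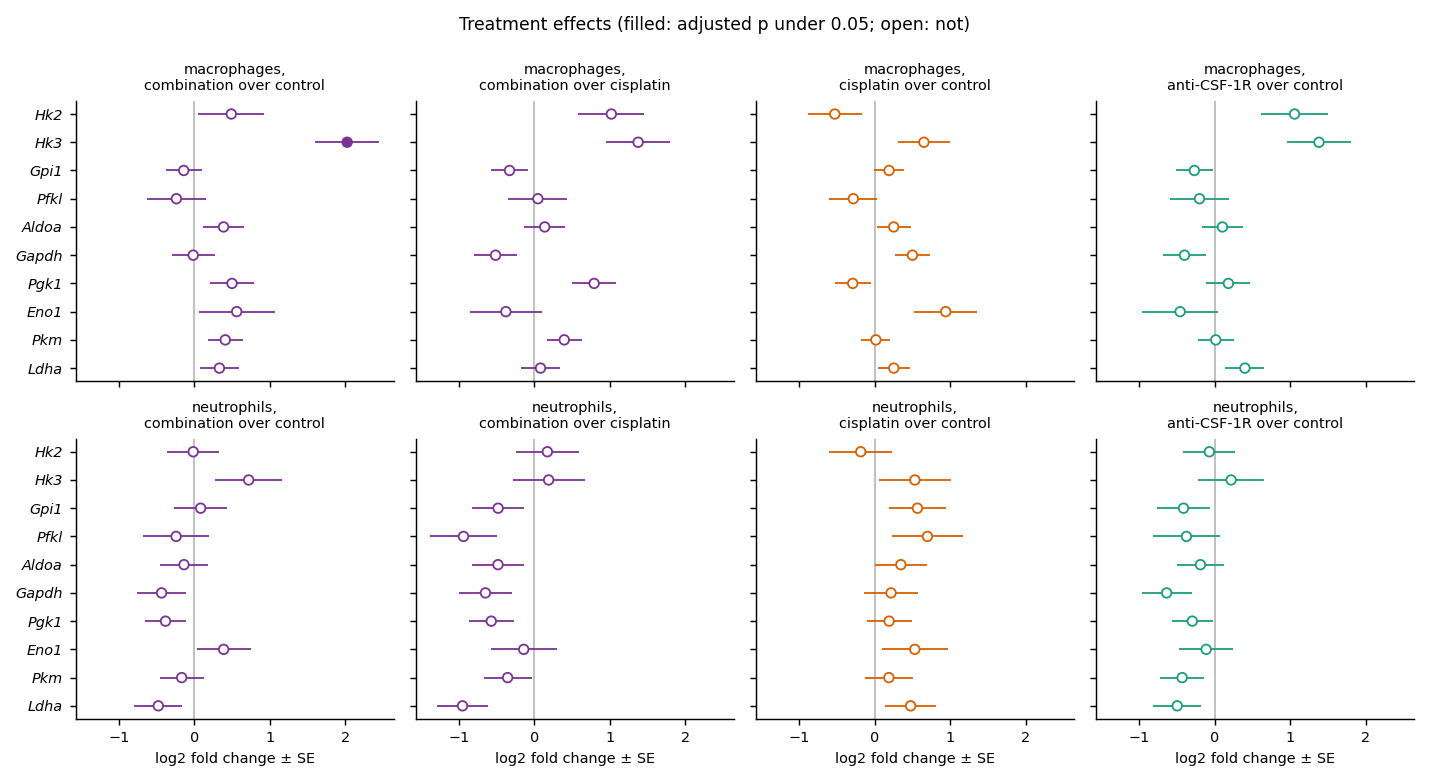
Log2 fold change of the 10 enzymes with its standard error in macrophages (upper row) and neutrophils (lower row) for the combination over control, the combination over cisplatin, cisplatin over control and anti-CSF-1R over control; filled points passed an adjusted p of 0.05. Macrophage Hk3 in the combination over control is the filled point.

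In neutrophils, none of the 10 enzymes passed in any of the 4 comparisons, nor under any alternative or with any library left out. Of all genes, 1.82% passed in the combination over control, 0.154% in the combination over cisplatin, 0.0658% with cisplatin over control and 0.230% with anti-CSF-1R over control. At an unadjusted p under 0.05, limma gave 0 of 10 enzymes in the combination (16.7% of all genes), cisplatin (8.66%) and anti-CSF-1R (10.1%) over control. It gave 2 of 10 in the combination over cisplatin, where 10.1% of all genes did, and the voom fit also passed 0 of 10 in each comparison. The medians over the 10 were -0.15, -0.48, 0.41 and -0.34 in the same order, beside 0.03, 0.01, 0.03 and 0.01 over all genes. The count in the combination over control moved with single libraries: 166 genes passed, and 12 without combination replicate 2. It was 25, 30 and 37 without control replicates 3, 1 and 2, and 65 and 91 without combination replicates 4 and 1. Without combination replicate 3 it was 172, and without control replicate 4 it was 194. The enzymes themselves rested on cisplatin replicate 2. Without it the median in the combination over cisplatin was -0.01 with 5 of the 10 above 0, and with cisplatin over control it was -0.07 with 4 of 10 above 0, beside 0.03 and 0.02 over all genes. Without combination replicate 2 the median in the combination over control was -0.34 and that in the combination over cisplatin -0.61, and without both libraries the median in the combination over cisplatin was -0.19.

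Ldha and Pfkl were the pair under an unadjusted 0.05 in combination over cisplatin neutrophils. Ldha stood at 497, 736, 779 and 739 in combination neutrophils, 1069, 2485 and 849.9 with cisplatin, 559, 869.9, 541 and 752 with anti-CSF-1R and 659, 893, 1554 and 863 in controls. Each combination library was below each cisplatin library, at a difference of -0.95 ± 0.34 SE, adjusted p = 0.316. Pfkl stood at 37.4, 94.9, 58.8 and 53.5 in combination neutrophils and 73.9, 315 and 59.9 with cisplatin, where 1 library stood far above the rest (log2 difference -0.94 ± 0.44 SE, adjusted p = 0.484). Without cisplatin replicate 2 the difference was -0.49 for Ldha and -0.20 for Pfkl.

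Gapdh stood at 1181, 2165, 1846 and 1464 in combination neutrophils, 2311, 4659 and 1530.2 with cisplatin, 1189, 1542, 1152 and 1849 with anti-CSF-1R and 1620.3, 1883, 3758 and 2003 in controls, and every pair of groups overlapped. Its difference with anti-CSF-1R over control was -0.64 ± 0.33 SE, adjusted p = 0.546, the largest below 0 among the 10 in that comparison. Pkm stood at 1039, 2119, 1223 and 1051 in combination neutrophils, 1211, 2849 and 1325 with cisplatin, 926, 1456, 856 and 1172 with anti-CSF-1R and 1254, 1483, 1797 and 1346 in controls, overlapping throughout. With anti-CSF-1R over control 9 of the 10 enzymes had a difference below 0, from -0.07 for Hk2 to -0.64 for Gapdh, and Hk3 one of 0.22. With cisplatin over control 9 of the 10 lay above 0, from 0.19 for Pkm to 0.70 for Pfkl, and Hk2 at -0.18. Without cisplatin replicate 2, 4 of the 10 lay above 0, from 0.02 for Ldha to 0.34 for Eno1, and 6 below 0, from -0.04 for Pfkl to -0.22 for Gapdh.

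Libraries of 1 group differed in all enzymes together. As the mean log2 deviation of the enzymes from their mean over the neutrophil libraries, cisplatin replicate 2 stood at 1.32, with 9 of 9 placed enzymes above that mean, while cisplatin replicates 1 and 3 stood at 0.15 and -0.25. Control replicate 3 stood at 0.44 and combination replicate 2 at 0.34, against -0.50 for anti-CSF-1R replicate 3 and -0.45 for combination replicate 1. Among macrophages, combination replicate 2 stood at 0.54 with 10 of 10 enzymes above the mean, and combination replicate 1 at -0.00 with 5 of 10. Control macrophage replicate 2 was lowest, at -0.41.

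Whether a treatment acted differently in the 2 cell types was tested as the effect in macrophages minus the effect in neutrophils. None of the 10 enzymes passed for the combination over cisplatin, cisplatin over control or anti-CSF-1R over control, where 0.306%, 0.131% and 0.367% of all genes passed, and the voom fit likewise passed 0 of 10 in each. The largest was Pgk1 for the combination over cisplatin, at 1.36 ± 0.43 SE, adjusted p = 0.186 (unadjusted p = 0.00406), with Ldha at 1.03 ± 0.47 SE, adjusted p = 0.398. Pgk1 averaged 504 ± 98.7 (SD, n = 2) in combination and 300.1 ± 97.2 (SD, n = 4) in cisplatin macrophages, and 397 ± 94.9 (SD, n = 4) in combination and 627 ± 315 (SD, n = 3) in cisplatin neutrophils. These were the 2 of 10 under an unadjusted 0.05 there, where 11.3% of all genes were; for anti-CSF-1R and for cisplatin over control 0 of 10 were, against 9.85% and 7.42%. The medians over the 10 were 0.80, -0.20 and 0.37, beside 0.01, -0.01 and 0.04 over all genes. The medians for the combination over cisplatin and for cisplatin over control rested on cisplatin neutrophil replicate 2: without it the median was 0.30 for the combination over cisplatin and 0.23 for cisplatin over control, beside 0.02 and -0.02 over all genes. Pgk1 then stood at 0.98 and Ldha at 0.57 for the combination over cisplatin, where 7 of the 10 lay above 0. Of all genes 12 passed there without that library, against 30 with it, and 1 and 0 without combination macrophage replicates 1 and 2.

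The enzymes around these steps were read from lists of pathway genes. Glucose and lactate carriers had differences of -6.15 to 2.01 in control tumours, where the 10 enzymes had -1.94 to 0.05. In control tumours 4 of 8 were lower in macrophages and 3 higher, where 24.9% and 26.9% of all genes were. Slc2a3, the high-affinity glucose carrier GLUT3, stood at 5.04, 6.49 and 26.9 in the 3 placed macrophage libraries, against 892, 1162, 664 and 503 in neutrophils (log2 difference -6.15 ± 0.46 SE, adjusted p = 1.32e-10). Slc2a1, the glucose carrier GLUT1, stood at 221, 187, 397 and 326 in macrophages, against 1099, 1555, 1959 and 1182 in neutrophils (log2 difference -2.38 ± 0.32 SE, adjusted p = 1.03e-06). Every macrophage value of both genes was below every neutrophil value in control tumours.

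Slc16a3, the lactate exporter MCT4, averaged 60.3 ± 24.3 (SD, n = 4) in macrophages of control tumours and 657 ± 211 (SD, n = 4) in their neutrophils (log2 difference -3.46 ± 0.37 SE, adjusted p = 2.42e-08). Slc2a6, another sugar carrier, differed by -2.79 ± 0.40 SE, adjusted p = 4.1e-06. Slc16a1, the lactate carrier MCT1, was higher in macrophages, at 78.9 ± 30.4 (SD, n = 4) against 31.4 ± 15.9 (SD, n = 4) in neutrophils (log2 difference 1.35 ± 0.35 SE, adjusted p = 0.00288), as were Slc16a7 (2.01) and Slc2a8 (1.60), 3 carriers named after their values were seen. Slc2a3, Slc2a1, Slc16a3 and Slc2a6 were lower in macrophages under each of the 4 treatments. In control tumours these 4 passed in each of the 18 alternatives.

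Other isoenzymes in control tumours gave 3 of 9 lower and 1 higher in macrophages, where 24.9% and 26.9% of all genes were. The platelet-type phosphofructokinase Pfkp averaged 70.1 ± 25 (SD, n = 4) in macrophages and 336 ± 119 (SD, n = 4) in neutrophils (log2 difference -2.24 ± 0.37 SE, adjusted p = 1.8e-05), and hexokinase 1 (Hk1) 18.2 ± 6.34 (SD, n = 4) in macrophages and 57.9 ± 16.5 (SD, n = 4) in neutrophils (log2 difference -1.64 ± 0.30 SE, adjusted p = 9.11e-05). Aldolase C (Aldoc) was lower too (log2 difference -1.34 ± 0.45 SE, adjusted p = 0.0145), and the enolase gene Eno2 higher, at 33.9 ± 19.9 (SD, n = 4) in macrophages and 7.35 ± 3.78 (SD, n = 4) in neutrophils (log2 difference 1.95 ± 0.43 SE, adjusted p = 0.000594). The Aldoc call was lost in 3 of 18 alternatives, with adjusted p up to 0.115. The triose phosphate isomerase gene Tpi1 (-0.28, adjusted p = 0.535) and the phosphoglycerate mutase gene Pgam1 (-0.23, adjusted p = 0.548) did not pass. Of the 3 measured genes for fructose 2,6-bisphosphate, the activator of phosphofructokinase, 2 were lower in macrophages: Pfkfb4 averaged 9.7 ± 2.88 (SD, n = 4) in macrophages and 50.7 ± 7.52 (SD, n = 4) in neutrophils (log2 difference -2.30 ± 0.29 SE, adjusted p = 5.73e-07), and Pfkfb3 differed by -1.35 ± 0.47 SE, adjusted p = 0.0182. The Pfkfb3 call was lost in 3 of 18, with adjusted p up to 0.0618.

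**Figure D5:**
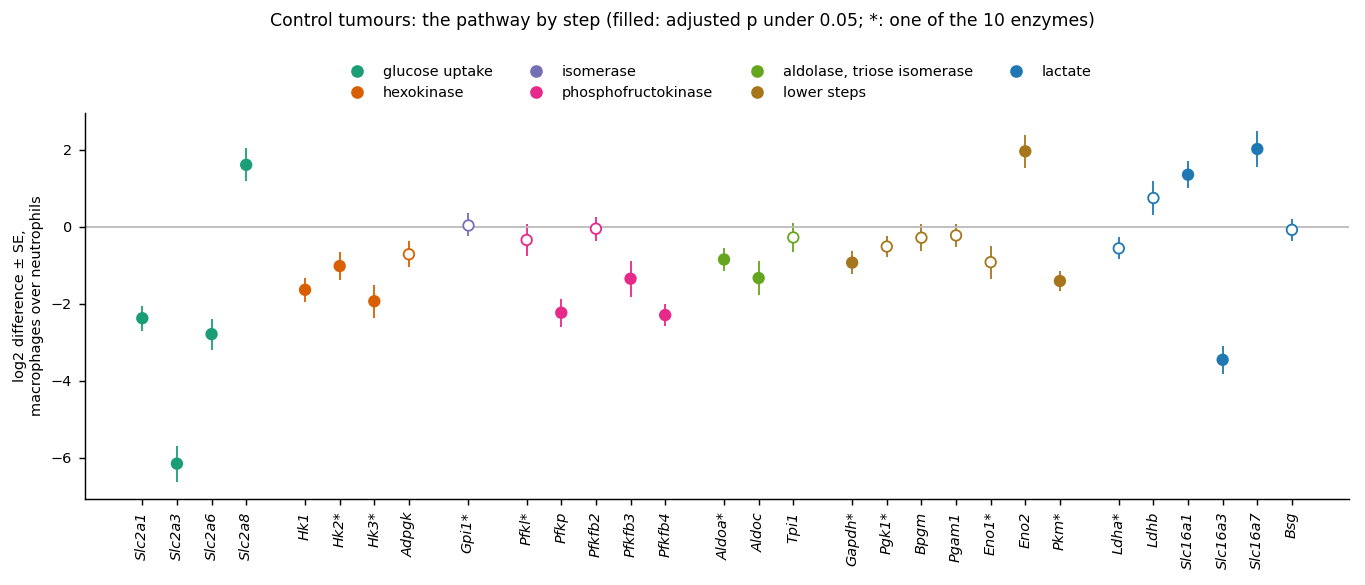
Log2 difference, macrophages over neutrophils, with its standard error in control tumours for the 10 enzymes (starred) and the other measured genes of glucose uptake, each glycolytic step and lactate, in pathway order; filled points passed an adjusted p of 0.05. The lowest point is the glucose carrier Slc2a3 at -6.15, and the highest are Slc16a7 at 2.01 and Eno2 at 1.95.

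Genes of routes beside glycolysis are read against the 24.9% of all genes that were lower and the 26.9% that were higher in control macrophages. Of 9 glycogen genes 5 were lower and 1 higher in control macrophages: the phosphorylase Pygl averaged 35.4 ± 20.6 (SD, n = 4) in macrophages and 475 ± 139 (SD, n = 4) in neutrophils (log2 difference -3.83 ± 0.35 SE, adjusted p = 3.14e-09), and the phosphorylase Pygb was the higher one (log2 difference 1.59 ± 0.34 SE, adjusted p = 0.00043). Of 8 pentose phosphate genes 1 was lower, Pgd (log2 difference -1.13 ± 0.24 SE, adjusted p = 0.000428), and 3 were higher: H6pd (log2 difference 0.98 ± 0.28 SE, adjusted p = 0.00446), Pgls (log2 difference 1.09 ± 0.45 SE, adjusted p = 0.0484) and Tkt (log2 difference 0.62 ± 0.26 SE, adjusted p = 0.0483). The Pgls call was lost in 8 of 18 alternatives, with adjusted p up to 0.139, and the Tkt call in 9 of 18, with adjusted p up to 0.119. Of 12 measured genes for pyruvate entry into mitochondria 2 were higher, the phosphatase subunit Pdp2 (log2 difference 1.86 ± 0.46 SE, adjusted p = 0.00173) and the pyruvate dehydrogenase component Dlat (log2 difference 0.83 ± 0.25 SE, adjusted p = 0.00729). The 1 measured gene of 7 for gluconeogenesis, the glucose 6-phosphatase gene G6pc3, was higher (log2 difference 1.18 ± 0.35 SE, adjusted p = 0.00691). For 10 regulators no count is given, so the shares of all genes are not read against them. Among them, the HIF prolyl hydroxylase Egln3 averaged 11.3 ± 6.59 (SD, n = 4) in macrophages and 225 ± 71.4 (SD, n = 4) in neutrophils (log2 difference -4.31 ± 0.47 SE, adjusted p = 3.42e-08). Epas1, the HIF-2 alpha subunit, was higher (log2 difference 1.74 ± 0.44 SE, adjusted p = 0.00264). The Epas1 call was lost with voom, at adjusted p = 0.0755. The difference of Max in control tumours changed sign after quantile normalisation. Of 14 measured HIF-1 targets outside glycolysis 6 were lower and 1 higher, the lower ones including Ankrd37 (-3.42), Ero1l (-2.22), Kdm3a (-2.0) and Bnip3l (-1.45).

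Under treatment, few genes of these lists passed. Of all genes, 4.26% passed in macrophages in the combination over control and 4.80% in the combination over cisplatin. With anti-CSF-1R over control 4.60% passed in macrophages, and in neutrophils 1.82% passed in the combination over control. Hif1a, the oxygen-regulated subunit of HIF-1, stood at 989 and 1222 in combination macrophages, 594, 436, 584 and 443 with cisplatin, 1001 and 870.2 with anti-CSF-1R and 381, 531, 443 and 367 in controls. Both combination and both anti-CSF-1R libraries lay above all 8 others. Hif1a rose in the combination over control (log2 difference 1.37 ± 0.23 SE, adjusted p = 0.0042), in the combination over cisplatin (log2 difference 1.11 ± 0.23 SE, adjusted p = 0.0146) and with anti-CSF-1R over control (log2 difference 1.13 ± 0.23 SE, adjusted p = 0.0134). The first was lost without combination replicate 2 (adjusted p = 0.113), the second without either combination library or cisplatin replicate 4 (adjusted p up to 0.196) and the third without either anti-CSF-1R library, after quantile normalisation and with the compared groups alone (adjusted p up to 0.0984).

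The ADP-dependent glucokinase Adpgk fell in combination macrophages, to 22.4 ± 1.49 (SD, n = 2), against 53.9 ± 9.27 (SD, n = 4) in controls (log2 difference -1.22 ± 0.27 SE, adjusted p = 0.02), and was lost without either combination library (adjusted p up to 0.172). Pygl rose to 121 ± 11.2 (SD, n = 2) in the combination, against 35.4 ± 20.6 (SD, n = 4) in controls (log2 difference 1.92 ± 0.45 SE, adjusted p = 0.0312), and was lost in 6 of 15 alternatives, either combination library left out among them (adjusted p up to 0.272). Tkt, a transketolase, fell in the combination over control (log2 difference -0.90 ± 0.22 SE, adjusted p = 0.0351) and was lost in 7 of 15, likewise (adjusted p up to 0.327). With anti-CSF-1R over control Pfkp rose to 168 ± 36.6 (SD, n = 2), against 70.1 ± 25 (SD, n = 4) in controls (log2 difference 1.30 ± 0.32 SE, adjusted p = 0.0347), and was lost in 7 of 15 (adjusted p up to 0.336), and the HIF-1 targets Ndrg1 (log2 difference 2.04 ± 0.44 SE, adjusted p = 0.0179) and Vegfa (log2 difference 1.49 ± 0.37 SE, adjusted p = 0.0344) rose and were lost in 3 and 8 of 15. Each of the 3 was lost without anti-CSF-1R replicate 2, the library with the mast cell marker sum of 9267 (adjusted p up to 0.392), and the part of those cells was not tested. In neutrophils Slc2a6 rose in the combination to 297 ± 100.0 (SD, n = 4), against 111 ± 19.99 (SD, n = 4) in controls (log2 difference 1.36 ± 0.28 SE, adjusted p = 0.0211), and was lost in 8 of 18 (adjusted p up to 0.0921), and Pfkfb4 rose to 115 ± 35 (SD, n = 4), against 50.7 ± 7.52 (SD, n = 4) in controls (log2 difference 1.14 ± 0.28 SE, adjusted p = 0.0453), and was lost in 12 of 18 (adjusted p up to 0.180). Both were lost without combination neutrophil replicate 2. Cisplatin over control moved no gene of these 9 lists past the threshold in either cell type. Of all genes, 0.629% passed there in macrophages and 0.0658% in neutrophils, so this does not set the lists apart. Adpgk was also lower in macrophages in the combination over cisplatin (log2 difference -1.0 ± 0.27 SE, adjusted p = 0.0448), lost in 12 of 15.

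Genes most like the enzymes were ranked by Pearson r with the mean log2 deviation of the 10, as a description within libraries that share their depth. Over the 15 neutrophil libraries and 2498 genes, the 5 highest were Pgam1 (r = 0.951), Gm12070 (0.933), Eno1b (0.922), Gm5069 (0.921) and Bnip3l (0.910), a mitophagy receptor. Of these, Gm12070, Eno1b and Gm5069 are near-identical copies of Gapdh or Eno1, and cisplatin replicate 2 is the highest library of each of the 5. Without it the same 5 genes were the highest, with r of 0.864 for Pgam1, 0.921 for Gm12070, 0.891 for Eno1b, 0.874 for Gm5069 and 0.879 for Bnip3l over 14 libraries. Over the 12 macrophage libraries and 2350 genes they were Tpi1 (r = 0.894), the glutaredoxin gene Glrx (0.861), the immunoproteasome subunit Psmb8 (0.815), the fibrinogen-like gene Fgl2 (0.788) and Tmbim6 (0.783). Pgam1 stood at 1541, 3613 and 857 in cisplatin neutrophils and at 629.8 to 1550.5 in neutrophils of the other treatments.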

How the data were processed

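RNA of sorted tumour macrophages and neutrophils was made into libraries from 10 ng of total RNA with the NuGen Ovation and Encore Rapid kits and sequenced on a HiSeq, per the labels' protocols. Build mm10 is given per the submitters' processing notes, with TopHat2 2.0.11, DESeq2, Partek 6.6 and CASAVA 1.8 among the tools; for the role of each, and for any use of strand in counting, the answer was not given in the sources used here. Values as deposited are a signal: whole read counts divided by a size factor per library, with 0 listed as 1, as found from the values themselves. Values under 1000 could have lost their decimal place in the deposited table. The place was restored from the value of 1 read in each library and a model of each gene over the groups of a cell type. Of 269892 values, 11490 (4.26%) with a probability under 0.95 were left out. Over all values, those left out included, 0.973% are expected to be wrong at their most probable place. On simulated data, 0.15% of the kept values were wrong in neutrophils and 0.105% in macrophages. Above 1, 0 of 260359 values as printed were further from a whole number of reads than the rounding of their digits and a small allowance permit.

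Differences were tested with limma 3.58.1 in R 4.3.3 (moderated, trended variance, two-sided) on log2(value + 1), for genes at 10 or more in at least 2 libraries, with Benjamini-Hochberg adjustment over all genes. Treatments were compared in a fit of each cell type's 4 groups, and cell types and differences of effects in a fit of all 8, over 15 comparisons. On simulated data, 26% of 2-fold and 83% of 4-fold changes were recovered for anti-CSF-1R over control in neutrophils (8985 genes) and 3% and 50% in macrophages (8967 genes). Of the genes called in these simulated comparisons, 23 of 132 were false in neutrophils and 12 of 65 in macrophages. For the simulated difference of this effect between the cell types, 11 of 67 called genes were false. These shares of false calls are larger than the adjusted p threshold is meant to allow, so calls may include more false ones than that threshold implies. The fits were tested on data simulated with no change too, where 2 and 7 genes were called. Gene models and copies came from GENCODE on GRCm38, and promoters from RefSeq. Members and lists were chosen with earlier results of these data known, and other genes were named as up to 4 of a list that passed with the smallest p, or as the 5 with the highest correlation. Alternatives were pseudocount, filter, scaling, voom, decoding, samples in the fit and libraries left out; adding the rows of copies, and the correlation without a neutrophil library, were chosen after seeing the data.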

Additional observations from a re-analysis of the deposited data

Results flagged for a closer look

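Each enzyme in each group of 4 libraries was tested for 1 library far from the others, where all its values were placed. Of these 47 sets, which share libraries, 4 were flagged, and chance alone flags some such sets. Gpi1 was lowest in combination neutrophil replicate 1, at 133, where the other 3 libraries lay at 217 to 232. Ldha was lowest in the same library, at 497, where the others lay at 736 to 779. Pkm was highest in combination neutrophil replicate 2, at 2119, where the others lay at 1039 to 1223. Aldoa was highest in control neutrophil replicate 3, at 1319, where the others lay at 799.8 to 841. Of 40 treatment effects compared between the cell types, none was flagged as differing.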

How the results depend on the processing

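The count of enzymes called stayed at 0 under every alternative and with each library left out for the 4 neutrophil comparisons, for cisplatin and anti-CSF-1R over control in macrophages and for the 3 differences of effects. In macrophages over neutrophils the counts moved, and the cause was not tested. In control tumours 5 became 2 with total-read scaling and 2 with quantile normalisation. With cisplatin 7 became 2, 4 after quantile normalisation and 3 without the 2 neutrophil libraries. With anti-CSF-1R 2 became 1 with total reads, voom, decoding without the groups, most probable places and added copies. In the combination 1 became 2 with total reads and with quantile normalisation (Pgk1 and Ldha, higher in macrophages), and 0 with only the groups compared or without the 2 libraries. The 1 call of combination over control macrophages became 0 when decoded without the groups. With 1 library left out the counts ran from 2 to 7 in control tumours, 3 to 9 with cisplatin, 0 to 2 with anti-CSF-1R, 0 to 1 in the combination, 0 to 1 in combination over control macrophages and 0 to 1 in combination over cisplatin macrophages, where Hk3 passed without cisplatin replicate 3 (1.71, adjusted p = 0.0253). Quantile normalisation turned the macrophage over neutrophil difference to 0.10 for Pkm and 0.19 for Max in the combination, to 0.00057 for Aldoa, 0.22 for Ldha and 0.079 for Hif1a with cisplatin, and to 0.10 for Max in control tumours; total-read scaling turned Max to 0.021 in the combination. A pseudocount of 10 and no filter each changed 0 of the 150 calls of an enzyme as passing or not, although the pseudocount made differences of low genes smaller. Restored reads over the genes of the table summed to 1000722 in the shallowest library, and groups of 2 macrophage libraries limit what could be called. No paired analysis was possible because the labels number no replicates.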
